A study of Mus musculus with 8 samples.

Results

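The 10 genes described here are bone morphogenetic protein (BMP) signalling genes: the ligands Bmp2, Bmp3, Bmp4, Bmp5 and Bmp7, the type I receptors Bmpr1a and Bmpr1b, and the BMP-responsive Smads Smad1, Smad5 and Smad9. They were taken by symbol from a table of 55536 mouse genes, and each symbol stood on 1 row. Tissue was the pair of posterior palatal shelves, the outgrowths that later make the roof of the mouth, cut from E14.5 embryos before the shelves had elevated. The mutant group was Yapfl/fl;Tazfl/fl;Col2Cre, with floxed alleles of both Hippo pathway co-activators and a Cre transgene named for the cartilage collagen gene Col2a1, and it had 4 libraries. The control group was Yapfl/fl;Tazfl/fl, with the same floxed alleles and no Cre named, and it also had 4 libraries. Epithelium and mesenchyme were dissected together, and cells in which the Cre is not active keep both floxed genes. In such bulk RNA fewer cells of a type and less RNA per cell cannot be told apart. The p-values below set the group difference against the scatter among these libraries. The labels do not tie each library to its own embryo, so this may not be the scatter between embryos.

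BMP ligands are secreted dimers that bring together a type I and a type II receptor kinase on the receiving cell. The type I receptor then phosphorylates Smad1, Smad5 or Smad9, which enter the nucleus with Smad4 and switch on genes such as Id1 and Msx2. Secreted antagonists such as noggin hold the ligands back. In the mouse palate BMP signals act in both epithelium and mesenchyme during shelf growth, and they also drive osteoblast and cartilage formation.

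The libraries held between 29025089 and 32437977 recovered reads each. Yap1 averaged 8463 ± 277 normalised counts in mutants and 9610 ± 429 in controls (SD, n = 4 each), and Wwtr1, the gene for TAZ, averaged 4007 ± 397 in mutants and 4879 ± 352 in controls. All 4 mutant libraries lay below all controls for Yap1 (limma unadjusted p = 0.00438), and 3 of 4 did for Wwtr1 (limma unadjusted p = 0.00310), but neither passed the all-gene limma test (adjusted p = 0.751 for both). The markers of palatal mesenchyme and of the posterior shelf were present in every library: the posterior transcription factor gene Meox2 ranged from 8378 to 10997 normalised counts in mutants and from 7677 to 9723 in controls. Mutant replicate 2 stood apart from the other mutants. It had the highest value of all 8 libraries for each of 14 epithelial markers and the lowest for each of 10 endothelial markers and for 10 of 14 tested osteogenic markers, and it held 840.4 normalised counts of Xist, against 0 to 17.4 in the other libraries. The results on members and lists that rest most on it are also given without it.

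None of the 10 BMP genes passed the limma test across 16647 genes at an adjusted p of 0.05, where 4 genes were called, all lower in mutants (0.0240% of genes tested, with 0.00% called higher). Of the members, 6 had a log2 difference below 0 and 4 above it. Their median was -0.021, against -0.00015 over all tested genes. Smad9, with a log2 difference of -0.67, and Bmp2, with -0.38, had the smallest unadjusted p-values. These 2 of 10 members, both lower in mutants, had an unadjusted limma p below 0.05, against 6.57% of all tested genes, 3.79% lower and 2.78% higher. Smad9 was the 1 member whose groups did not overlap, against 3.77% of all tested genes, 1.91% lower and 1.86% higher. On recovered whole reads edgeR called 0.0300% of genes, and DESeq2 called 0.221%, 0.199% lower and 0.0214% higher. Neither called a member.

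**Figure D1:**
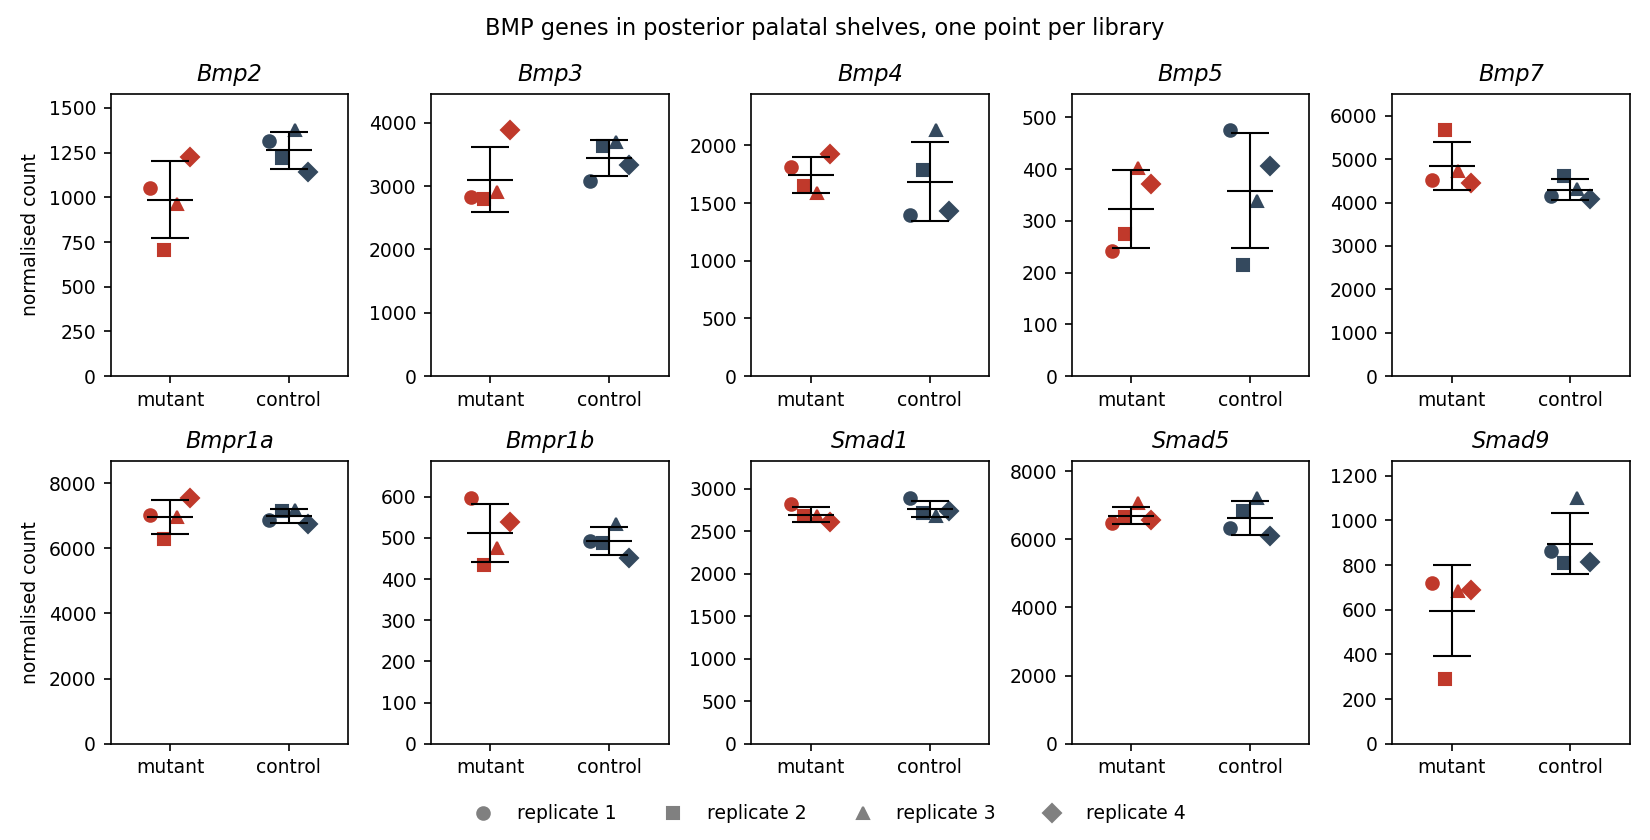
Normalised counts (vertical axis, from 0, with its own scale in each panel) of the 10 BMP genes in mutant and control libraries. Each point is a library, with the marker shape giving the replicate number, and bars give the mean and SD of 4 libraries. Smad9 is the gene in which all 4 mutant points, from 289.6 to 721.5, lie below all 4 control points, from 810.2 to 1100.8.

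Levels of different genes were compared as normalised counts per kilobase of merged exon. Bmp7 and Bmpr1a were the most abundant members, at 1205 ± 139 and 1096 ± 80.6 per kb in mutants and 1069 ± 59.3 and 1100.2 ± 34.3 in controls (SD, n = 4 each). They did not separate from each other, with Bmp7 the higher in 4 of 8 libraries. Smad5 came next, at 901 ± 34.4 per kb in mutants and 891 ± 67.5 in controls, and it lay above Bmp4 in all 8 libraries. Bmp3 and Smad1 were not separable, since Bmp3 was the higher in 4 of 8. Bmp2 followed and lay above Smad9 in all 8 libraries, and Smad9 lay above Bmp5 in 7 of 8. Bmp5 and Bmpr1b had the lowest means, at 80.2 ± 18.9 and 85.8 ± 11.98 per kb in mutants and 89.1 ± 27.5 and 82.5 ± 5.69 in controls, and did not separate from each other either. In mutant replicate 2 Smad9, at 53.9 per kb, lay below Bmp5, at 68.4, and Bmpr1b, at 72.9.

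Among the ligands, Bmp2, a strong inducer of bone and cartilage formation, had the largest difference. It had 1055.1, 706.1, 963.9 and 1226.9 normalised counts in mutant replicates 1 to 4, against 1315.0, 1219.3, 1374.8 and 1140.1 in control replicates 1 to 4. Of the mutant libraries, 3 lay below all controls, while mutant replicate 4 lay among them. Bmp2 (ENSMUSG00000027358, chromosome 2 from 133552159 to 133562885) averaged 988 ± 217 in mutants and 1262 ± 104 in controls (SD, n = 4 each). The log2 difference was -0.38 (SE 0.144, 95% interval -0.69 to -0.064, limma unadjusted p = 0.0223, adjusted p = 0.754), and 2.85% of tested genes had a smaller p. Without mutant replicate 2 it was -0.23 (95% interval -0.45 to 0.00067, limma unadjusted p = 0.0506, adjusted p = 0.975).

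Bmp7, a ligand needed for normal palate closure in mice, had a higher mean in mutants, within an overlap of the groups. It had 4526.6, 5661.7, 4732.4 and 4455.5 normalised counts in mutant replicates 1 to 4, against 4157.0, 4621.2, 4316.2 and 4084.3 in control replicates 1 to 4. The groups overlapped, with 2 mutant libraries above all controls and mutant replicate 2 the highest of the 8. The mean was 4844 ± 558 in mutants and 4295 ± 238 in controls, a log2 difference of 0.17 (SE 0.0782, 95% interval -0.0024 to 0.34, limma unadjusted p = 0.0528, adjusted p = 0.754). Without mutant replicate 2 the log2 difference was 0.091. Bmp7 (ENSMUSG00000008999) lies on chromosome 2 from 172868012 to 172940321.

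Bmp4, the ligand best known for early patterning of the face and teeth, did not separate the groups. It had 1809.7, 1649.7, 1587.1 and 1926.8 normalised counts in mutant replicates 1 to 4, against 1393.8, 1789.3, 2130.9 and 1434.8 in control replicates 1 to 4. All 4 mutant libraries lay within the range of the controls, and the log2 difference was 0.065 (95% interval -0.21 to 0.34, limma adjusted p = 0.947). Its exons share 89 bp with the opposite-strand gene Gm15217, which had 0 counts in every library.

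Bmp3, which opposes the bone-forming action of other BMPs, ranged from 2792.0 to 3881.0 normalised counts in mutants and from 3088.0 to 3704.7 in controls. Of the mutant libraries, 3 lay below all controls, and replicate 4 lay above them all. The log2 difference was -0.16 (SE 0.104, 95% interval -0.38 to 0.068, limma adjusted p = 0.805), and -0.27 without mutant replicate 4. Bmp5, the ligand mutated in short ear mice and a regulator of cartilage condensations, ranged from 242.1 to 401.4 in mutants and from 214.8 to 474.9 in controls. Its log2 difference was -0.12 with a wide 95% interval of -0.66 to 0.41 (SE 0.244, limma adjusted p = 0.950), and all 4 mutant libraries lay within the control range.

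Taken as shares of the 5 ligands' summed level per kb, Bmp7 held 43.8% ± 5.29 in mutants and 39.3% ± 2.27 in controls (SD, n = 4 each). Bmp4 held 28.1% ± 1.89 in mutants and 27.3% ± 3.33 in controls, and Bmp3 held 15.2% ± 1.91 and 17.1% ± 0.67 in the same groups. Bmp2 held 7.13% to 11.8% of the ligand sum in mutants and 12.1% to 14.45% in controls, ranges that did not overlap but lay close together. The normalised counts of Bmp2 themselves did overlap between the groups. The ligand sum itself was 2759 ± 128 per kb in mutants and 2728 ± 224 in controls.

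**Figure D2:**
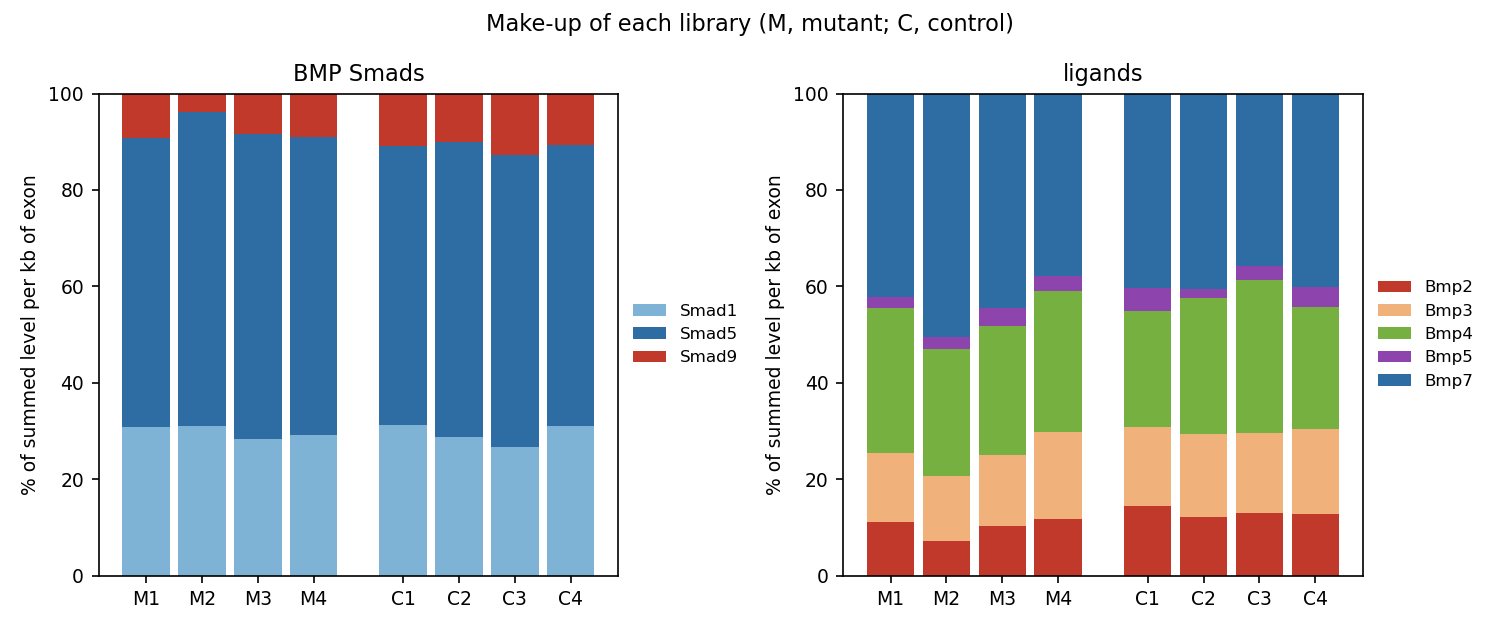
Share of the summed level per kilobase of exon (vertical axis, percent, from 0 to 100) held by each BMP Smad (left) and each ligand (right) in every library, with the 4 mutants left of the 4 controls. Smad9 is the top segment on the left, 3.91% to 9.23% in mutants and 10.04% to 12.8% in controls. Bmp2 is the bottom segment on the right and is smallest in mutant replicate 2, at 7.13%.

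Neither type I receptor separated the groups. Bmpr1a, the widely used BMP type I receptor of palatal mesenchyme and epithelium, ranged from 6297.7 to 7545.5 normalised counts in mutants and from 6734.8 to 7181.7 in controls. The mutant libraries lay on both sides of the control range. Its log2 difference was -0.0084 (SE 0.0606, 95% interval -0.14 to 0.12, limma adjusted p = 0.985), an interval of -9.29% to 8.96% as a percent change. Bmpr1b, the type I receptor known from digit cartilage, ranged from 434.4 to 597.1 in mutants and from 451.7 to 534.5 in controls, with a log2 difference of 0.049 (95% interval -0.22 to 0.32, limma adjusted p = 0.964). Bmpr1a made up 92.8% ± 0.71 of the summed level per kb of the pair in mutants and 93.0% ± 0.309 in controls (SD, n = 4 each).

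Of the 3 BMP Smads, Smad1 and Smad5, the main carriers of the BMP signal, had log2 differences near 0, while Smad9 was lower in every mutant library than in any control. Smad1 ranged from 2602.5 to 2814.2 normalised counts in mutants and from 2683.9 to 2892.0 in controls, a log2 difference of -0.033 (SE 0.0557, 95% interval -0.15 to 0.089, limma adjusted p = 0.936). Its groups overlapped, although 3 mutant libraries lay just below the lowest control. Smad5 ranged from 6475.4 to 7056.7 in mutants and from 6092.6 to 7214.5 in controls, a log2 difference of 0.018 (SE 0.0620, 95% interval -0.12 to 0.15, limma adjusted p = 0.972). The differences between the Smads were not tested against one another.

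Smad9, formerly called Smad8, is a BMP-responsive Smad with weaker transcriptional activity than the other two. It had 721.5, 289.6, 684.1 and 686.8 normalised counts in mutant replicates 1 to 4, against 861.4, 810.2, 1100.8 and 813.1 in control replicates 1 to 4. All mutant libraries lay below all controls, mutant replicate 2 was far below the other mutants, and control replicate 3 was above the other controls. Smad9 (ENSMUSG00000027796, chromosome 3 from 54755582 to 54801257) averaged 596 ± 205 in mutants and 896 ± 138 in controls (SD, n = 4 each). The log2 difference was -0.67 (SE 0.251, 95% interval -1.22 to -0.12, limma unadjusted p = 0.0215, adjusted p = 0.754), and 2.78% of tested genes had a smaller p. Without mutant replicate 2 the other 3 mutants averaged 697 ± 20.9. The log2 difference was then -0.35 (95% interval -0.61 to -0.089, limma unadjusted p = 0.0131, adjusted p = 0.975). Smad9 made up 7.64% ± 2.503 of the summed level per kb of the BMP Smads in mutants and 11.1% ± 1.17 in controls. The sum of the 3 Smads was 1443 ± 53.4 per kb in mutants and 1499 ± 81.4 in controls.

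**Figure D3:**
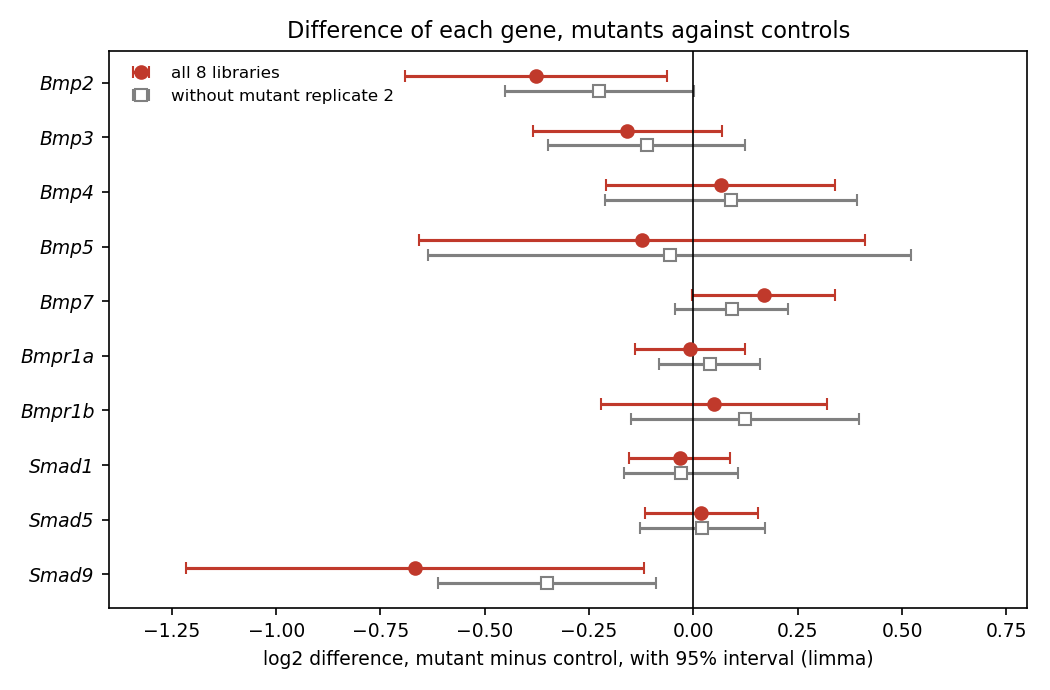
Log2 difference of each BMP gene, mutant minus control, with its 95% interval from limma (horizontal axis). Filled circles use all 8 libraries and open squares leave out mutant replicate 2. Without that library Smad9 lies at -0.35 in place of -0.67 and Bmp2 at -0.23 in place of -0.38.

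The start regions of the 3 BMP Smads are shown because the windows printed differ in a GC-rich element of BMP Smads, although the encoded proteins act at the same step. The sequences are the 250 bases before the RefSeq start site in GRCm38.p6, 5′ to 3′ on the gene's own strand. They lie at chr3:54755332-54755581 on the plus strand for Smad9, at chr8:79399429-79399678 on the minus strand for Smad1, and at chr13:56702760-56703009 on the plus strand for Smad5, the start that equals the table's gene start. Capitals mark GGCGCC, the GC-rich element that Smad1 and Smad5 can bind, which reads the same on both strands.
Smad9: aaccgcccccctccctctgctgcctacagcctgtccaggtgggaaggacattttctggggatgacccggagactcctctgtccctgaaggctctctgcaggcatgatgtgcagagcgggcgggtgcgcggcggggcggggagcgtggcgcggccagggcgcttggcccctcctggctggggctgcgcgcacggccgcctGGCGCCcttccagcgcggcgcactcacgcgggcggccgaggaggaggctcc
Smad1: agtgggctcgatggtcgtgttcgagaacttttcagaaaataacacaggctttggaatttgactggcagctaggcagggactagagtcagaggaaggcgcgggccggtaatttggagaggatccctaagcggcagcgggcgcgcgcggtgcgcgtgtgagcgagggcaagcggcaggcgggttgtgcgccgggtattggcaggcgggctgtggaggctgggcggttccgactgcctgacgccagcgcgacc
Smad5: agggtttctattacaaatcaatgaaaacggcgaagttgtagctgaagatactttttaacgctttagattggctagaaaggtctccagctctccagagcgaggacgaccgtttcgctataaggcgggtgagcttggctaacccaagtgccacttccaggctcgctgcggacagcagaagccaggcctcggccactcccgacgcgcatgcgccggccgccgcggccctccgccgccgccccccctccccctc
The Smad9 window held GGCGCC once, beginning 51 bases before the start, and those of Smad1 and Smad5 held none. A second RefSeq start of Smad5, 42 bases downstream, has the element 19 bases before it. Of all 32851 RefSeq windows of this length, 9.59% held GGCGCC and 12.6% held GGAATG, the element of the TEAD factors that YAP and TAZ bind, on either strand. RefSeq windows were at hand for 7 of the 10 members, all but Bmp2, Bmp3 and Bmp7. GGCGCC was in 3 of the 11 windows of these genes, 1 each of Bmpr1a, Smad5 and Smad9, and GGAATG was in none. Those 3 windows, in the same order, held 78.8%, 66.4% and 73.2% G and C bases. Windows of the same gene can overlap, as those of the Smad5 starts 42 bases apart do. The share of windows with GGCGCC was not tested against that of all windows.

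The library with the lowest Smad9 and Bmp2 was also at the extreme of several marker lists of other cell types. All 14 tested osteogenic markers had lower mean log2 values in mutants, and the summed counts of the 16-gene list ranged from 156250 to 245464 in mutants and from 266631 to 297753 in controls, with Bglap at 0 throughout. Most of these sums was Col1a1, at 113410 to 178482 in mutants and 168705 to 219318 in controls. In the mean log2 level of the list the groups overlapped, with mutant replicate 4 at -0.51 and control replicate 3 at -0.53. Of 11 tested chondrogenic markers 10 had lower mean log2 values, with sums from 19268 to 42704 in mutants and from 35878 to 56458 in controls. All 14 epithelial markers had higher mean log2 values, with sums from 42480 to 75630 in mutants and from 39456 to 54573 in controls. Among endothelial markers 9 of 10 had lower mean log2 values, with sums from 14220 to 18808 in mutants and from 18604 to 20264 in controls. Of 8 erythroid markers 7 had higher mean log2 values, with sums from 16039 to 42344 in mutants and from 19458 to 23772 in controls. All 6 Schwann cell markers did too, with sums from 3020.2 to 6570 in mutants, highest in replicate 1, and from 2907 to 3412 in controls. Of 5 neuronal markers 3 had higher mean log2 values, and the sum was 4214 in mutant replicate 2, against 1106 to 1453 in the other mutants and 697 to 2847 in controls. Muscle marker sums ran from 16382 to 61709 in mutants and from 32756 to 41406 in controls. Without mutant replicate 2 the epithelial sums of the mutants ran from 42480 to 53121, within the control range. Leaving it out, the median log2 difference was 0.086 in place of 0.22 for epithelial markers, 0.11 in place of 0.28 for erythroid, -0.080 in place of -0.14 for endothelial, -0.37 in place of -0.62 for chondrogenic and -0.80 in place of -1.03 for osteogenic markers. The Schwann cell median rose to 0.58 from 0.50. Neuronal and muscle medians changed sign, to -0.33 from 0.063 and to -0.073 from 0.098. No marker of these lists passed the limma test. The part of these cell types in the Smad9 and Bmp2 differences was not tested.

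**Figure D4:**
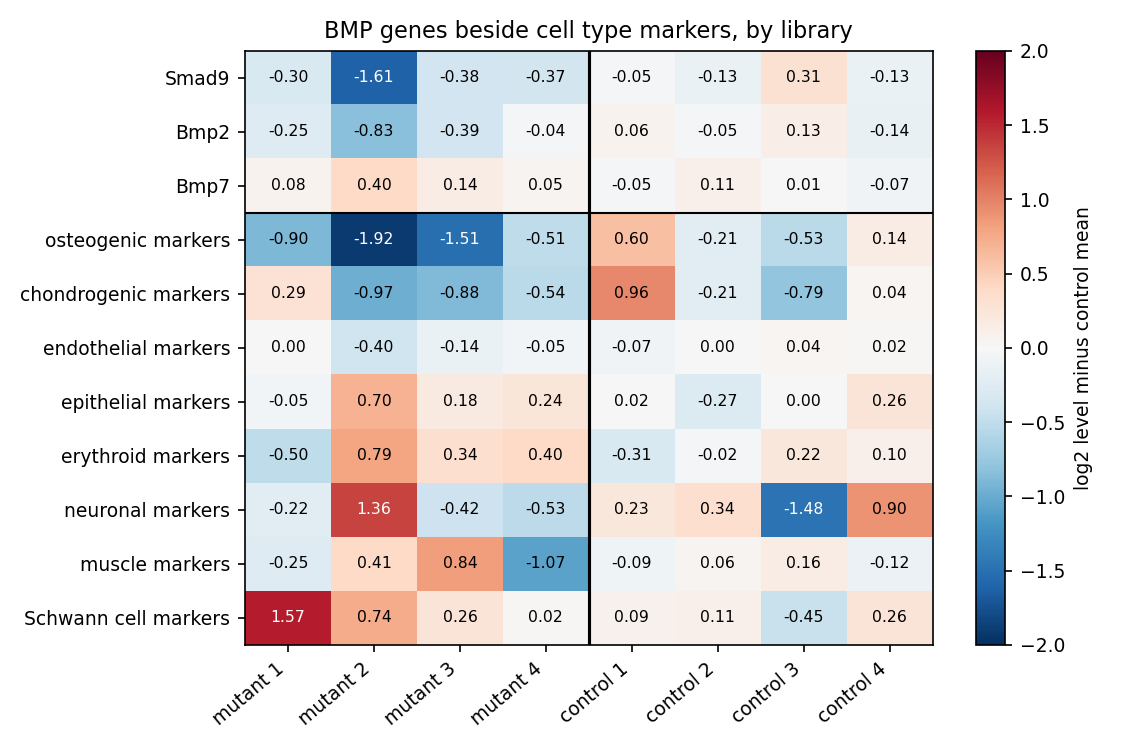
Log2 level of Smad9, Bmp2, Bmp7 and the mean log2 level of 8 marker lists in each library, relative to the mean of the 4 controls, with mutants left of controls. Mutant replicate 2 is lowest for Smad9 (-1.61), Bmp2 (-0.83), osteogenic (-1.92) and endothelial (-0.40) rows, and highest for Bmp7 (0.40) and epithelial (0.70) rows.

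The likeness of members was described by Pearson's r. Smad9 and Bmp2 were taken up for their small p-values, and r over all libraries includes the group difference. Over the 8 libraries r of the log2 values was 0.94 between Smad9 and Bmp2, -0.90 between Smad9 and Bmp7 and -0.88 between Bmp2 and Bmp7. These were the member pairs with the largest r in size. As deviations from the group means they were 0.89, -0.83 and -0.80. These values lean on mutant replicate 2, since without it the deviations gave 0.50, -0.031 and -0.23 over 7 libraries. The r of the log2 values, group difference included, was then 0.76, -0.50 and -0.55. In deviations not every pair leaned on it as much: those of Bmp2 and Bmpr1a gave 0.94, and 0.81 without that library. In the log2 values this pair did lean on it, with r at 0.75, and 0.28 without that library. The tested genes with the pattern most like that of Smad9 over 8 libraries were Cemip (r = 0.98), which acts in hyaluronan breakdown, Aebp1 (0.98) and Col11a1 (0.98), genes of collagen matrix, Itgbl1 (0.98) and Tmem120b (0.98). Without mutant replicate 2 their r of the log2 values, not of deviations, ranged from 0.87 to 0.94. For Bmp2 they were Tns2 (0.98), Sdc2 (0.97), a syndecan, Slc7a2 (0.97), Cd200 (0.96) and Ckap4 (0.96), with r from 0.87 to 0.93 without that library. The genes and pairs were picked by their values, so these are descriptions and carry no p.

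The rest of the pathway was taken from 7 lists, and no gene of any of them passed the limma test. Among 5 tested other ligands 3 had lower and 2 higher mean log2 values. The median log2 difference was -0.033, and -0.17 to 0.097 when 1 library was left out, with Gdf6, a joint-forming ligand, at -0.41 (SE 0.325), Bmp8b at 0.41 (SE 0.235), Gdf7 at -0.055 and Bmp6 at 0.027. Bmp10 and Gdf2 were at 0 in all libraries, and Bmp8a and Bmp15 were too low to test. Of the 8 other receptors and co-receptors 4 had lower and 4 higher mean log2 values (median -0.0013). Their range ran from -0.081 to 0.12, with the type II receptor gene Bmpr2 at -0.078 (SE 0.0702), the type I receptor gene Acvr1 at 0.12 (SE 0.0807), and the co-receptor genes Rgmb at 0.12 and Rgma at 0.066. The common and TGF-beta Smads were also near 0, with Smad2 at -0.036, Smad3 at 0.040 and Smad4 at 0.050.

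Secreted antagonists held the pathway gene with the smallest p. Of 14 tested, 8 had lower and 6 higher mean log2 values (median log2 difference -0.018), and 1 had groups without overlap and was lower in mutants, where 3.77% of all tested genes had no overlap, 1.91% being lower. Chrdl1, a chordin-like BMP antagonist, had 721.5, 568.8, 921.4 and 618.0 normalised counts in mutant replicates 1 to 4, against 1003.1, 748.7, 1388.1 and 1186.3 in control replicates 1 to 4. The groups overlapped, since mutant replicate 3 exceeded the lowest control. The log2 difference was -0.60 (SE 0.189, limma unadjusted p = 0.00822, adjusted p = 0.754). Nbl1, a DAN family antagonist, was at 0.20 (SE 0.0812, limma adjusted p = 0.754), and Nog, noggin, ranged from 185.5 to 261.6 in mutants and from 179.6 to 372.2 in controls (log2 difference -0.35, SE 0.242). Cer1 was the gene without overlap, at 1.9 to 12.6 normalised counts in mutants and 12.8 to 18.5 in controls. These counts are close to the limit of 3 reads that a count of 0 allows, which is 2.84 to 3.19 normalised counts in these libraries. The 3 ligand-releasing proteases had lower mean log2 values, with Bmp1 at -0.10, Tll1 at -0.25 and Tll2 at -0.029. The 6 intracellular inhibitors had a median of 0.0039, with Smad6 at -0.034, Smad7 at 0.085, Tob1 at 0.037 and Bambi, a decoy receptor, at -0.21, or 0.0053 without mutant replicate 2.

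Genes known to respond to BMP had lower mean log2 values in 12 of 15 cases, with a median log2 difference of -0.21, where 8330 of 16647 tested genes had lower mean log2 values. None passed. An unadjusted limma p below 0.05 was found for 2 of the 15, both lower in mutants, against 6.57% of all tested genes, 3.79% lower. Sp7, the osteoblast transcription factor osterix, had 3458.9, 858.4, 1798.4 and 3697.9 normalised counts in mutant replicates 1 to 4, against 4826.8, 3708.5, 3667.8 and 4018.5 in control replicates 1 to 4. Of the mutant libraries, 3 lay below all controls, with replicate 2 the lowest. The log2 difference was -0.93 (SE 0.360, limma adjusted p = 0.754), and -0.50 without mutant replicate 2. Dlx5, a homeobox regulator of facial bone, was at -0.52 (SE 0.186), Runx2, the factor that starts the osteoblast lineage, at -0.56 (SE 0.257), and Hey1, a target shared with Notch, at 0.22 (SE 0.103). Chosen after their values were seen, the direct targets Id1 and Id3 were at -0.041 (SE 0.0888) and 0.044 (SE 0.0932). Id2 was at -0.28 (SE 0.140) and Msx2 at -0.61 (SE 0.390), both lowest in mutant replicate 2, and without it they were at -0.11 and -0.14. Runx2 was then at -0.27, while Dlx5, at -0.45, and Hey1, at 0.20, moved less. The list shares Runx2 and Sp7 with the osteogenic markers, Smad6, Smad7 and Bambi with the intracellular inhibitors, and Nog with the secreted antagonists. Without mutant replicate 2 the median of the list was -0.14.

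**Figure D5:**
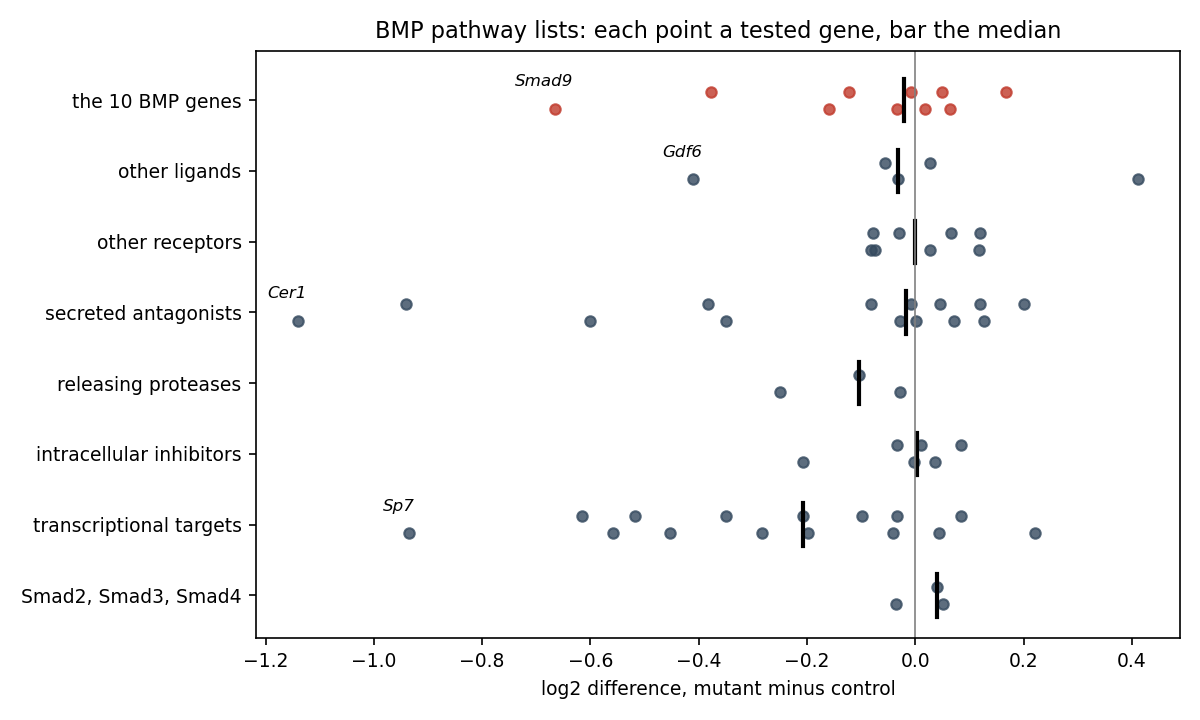
Log2 difference, mutant minus control (horizontal axis), of every tested gene in the 10 BMP genes (red) and in 7 BMP pathway lists (grey-blue), with a black bar at each median. The transcriptional targets have a median of -0.21 and the lowest value at Sp7 (-0.93), while receptors and the Smad2, Smad3 and Smad4 row stay between -0.081 and 0.12.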

How the data were processed

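RNA of 8 libraries, 4 mutant and 4 control, was sequenced on an Illumina HiSeq, per the labels' protocols, and replicates were numbered 1 to 4 within each group in accession order, which pairs nothing. STAR 2.7.2 and DESeq2, the second without a version, are named in the submitters' processing notes, while the counter, its strand mode, the annotation and the build are not stated there or in the labels. The deposited signal values are normalised counts, which the authors made by dividing each library's gene reads by its size factor, kept to 1 decimal. A step per library turned 100% of values between 50 and 5000 into whole reads within 0.1, which gave size factors of 0.939 to 1.06 and totals of 29025089 to 32437977 reads. The deposited log2 values are the authors' variance-stabilised values, whose lowest value was 9.47, and they served in 1 alternative only. Floors of 3 reads cover counting error only. No 2 libraries held identical values.

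Genes with at least 10 normalised counts in at least 4 of 8 libraries were fitted with limma 3.58.1 (R 4.3.3) on log2(normalised count + 1), with a variance trend and genotype as the only term, two-sided, with Benjamini-Hochberg adjustment over 16647 genes at 0.05. The pseudocount slightly understates changes of low genes. Means carry the SD over libraries, SE and 95% intervals are limma's, and exon lengths came from GENCODE M21 (GRCm38), whose starts and ends equalled the table's for all 10 members. Where the counting ignored strand, reads of Bmp5 and Gm26903, which share 46.7% of the exon bases of Bmp5, could not be told apart; Gm26903 averaged 0.237 normalised counts. Genes named were the 10 members, Yap1, Wwtr1, up to 4 genes of each pathway list with the smallest p, and the 5 genes most correlated with each of the 2 members of smallest p, with predicted and sex-linked genes left out of this last search only. Meox2, Bglap, Col1a1 and Xist, named as checks of the tissue and libraries, and Id1, Id2, Id3 and Msx2 lie outside this rule and were picked with their values known. Members, lists and tests were chosen with earlier results of these data known. The fit was tested on simulated data. The 20 alternatives included edgeR 4.0.16 and DESeq2 1.42.0 on recovered reads. Figures used matplotlib 3.10.9 in Python 3.11.15.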

Additional observations from a re-analysis of the deposited data

Results flagged for a closer look

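Within a group of 4 libraries, 1 library lay far from the other 3 in 6 of 90 groups of values examined, and chance flags about 1 in 20. Smad9 in mutant replicate 2 was at 289.6 normalised counts, against 684.1 to 721.5 in the other mutants, and its share of the BMP Smads there was 3.91%, against 8.46% to 9.23%. Mutant replicate 2 is also the library with the lowest osteogenic and the highest epithelial marker levels, and the part of this in the Smad9 value was not tested. Bmp3 in mutant replicate 4 was at 3881.0 normalised counts, against 2792.0 to 2910.9 in the other mutants. The share of Bmp7 among the ligands in control replicate 3 was 35.9%, against 40.2% to 40.6% in the other controls. Of the pathway genes, Bmp6 was at 358.1 normalised counts in control replicate 3, against 597.4 to 620.7 in the other controls, and Tob1 at 1469.3 in mutant replicate 1, against 1163.2 to 1198.3 in the other mutants.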

How the results depend on the processing

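None of the 10 members passed under any of the 20 alternatives run, and no pathway list gene did. Smad9, Bmp2, Bmp3, Smad1 and Bmp7 kept their direction in all 20. Leaving out 1 library in turn moved the log2 difference of Smad9 between -0.79 and -0.35, of Bmp2 between -0.49 and -0.23, and of Bmp7 between 0.091 and 0.21. On the stabilised scale Smad9 was at -0.28 and Bmp2 at -0.20, and DESeq2 gave Smad9 -0.59 (adjusted p = 0.447).

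Members near 0 changed sign. The labels do not say what the first number of each title marks. Between controls and mutants that shared it, correlations of deviations ran from -0.0077 to 0.10 in 4 pairs. In pairs of a control and a mutant that did not share it they ran from -0.085 to 0.076. Pairs within a group were not examined. With the title number as a block Bmp4 was at -0.066, Bmp5 at 0.15, Bmpr1a at 0.0015, Bmpr1b at -0.017 and Smad5 at -0.023. In this fit the other ligands' median was 0.31 and the antagonists' -0.18, and 6 genes were called. Control replicate 1 and mutant replicate 1 share their number with no other library, so they did not inform its differences. With library weights Bmpr1a was at 0.0046. Leaving out 1 library gave ranges of -0.020 to 0.18 for Bmp4, -0.35 to 0.032 for Bmp5, -0.048 to 0.039 for Bmpr1a, -0.029 to 0.12 for Bmpr1b, -0.020 to 0.061 for Smad5, and medians of -0.13 to 0.053 for the antagonists, -0.17 to 0.097 for the other ligands and -0.32 to -0.0018 for the proteases. The cause was not tested.

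Over all genes the limma count of 4 became 0 with robust variances and 31 with DESeq2, and 0 to 11 when 1 library was left out. Leaving out mutant replicate 3 or control replicate 2 or 4 gave 0, leaving out control replicate 3 gave 11, and leaving out mutant replicate 4 gave 8. Groups without overlap numbered 952 to 1424 genes and 1 to 3 members when 1 library was left out, where fewer samples make overlap less likely. Depth limits genes of a few reads such as Cer1.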
